A study of Mus musculus with 8 samples.

Results

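The 10 genes described here carry the insulin signal in the hepatocyte, from the receptor to the FOXO transcription factors: *Insr*, *Irs1*, *Irs2*, *Pik3r1*, *Akt1*, *Akt2*, *Foxo1*, *Foxo3*, *Trib1* and *Trib3*. They were taken by symbol from the 24940 genes of a liver RNA-seq count table. Livers came from C57BL/6 males of 2 genotypes, with 4 livers in each. FXRKO mice carried Bcl6(fl/fl) and FXR(homo), that is, floxed *Bcl6* that was not recombined and a homozygous whole-body *Fxr* knockout. BCL6LKOFXRKO mice carried the same alleles plus Alb-Cre, in which the albumin promoter drives Cre recombinase in hepatocytes and deletes *Bcl6* there. Thus both groups lacked *Fxr*, and the groups differed in Alb-Cre and hepatocyte *Bcl6* together, which cannot be told apart. The age of the mice is not given in the sources used here. The study used mice fed ad libitum or fasted for 4 hours, and which of these applied to the sequenced livers is not given, although several of these genes are known to respond to feeding.

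Insulin binds its receptor tyrosine kinase, encoded by *Insr*, which phosphorylates the adaptor proteins IRS1 and IRS2. These recruit phosphatidylinositol 3-kinase through its regulatory subunit p85 alpha, and the lipid product activates the kinases AKT1 and AKT2. AKT phosphorylates FOXO1 and FOXO3 and so keeps them out of the nucleus, where they would otherwise turn on genes of glucose output and also *Irs2* and *Insr*. The tribbles pseudokinases TRIB1 and TRIB3 act beside this axis: TRIB1 directs the transcription factor C/EBP alpha to degradation, and TRIB3 is a stress-induced gene whose product can bind AKT.

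Of the 10 genes, 4 were lower and 1 was higher in BCL6LKOFXRKO than in FXRKO livers, and 5 were not called. *Insr*, *Irs1*, *Pik3r1* and *Foxo1* fell to between 0.602 and 0.708 of their FXRKO level, and *Irs2* rose 2.55-fold. Calls rest on edgeR's quasi-likelihood test, at a threshold of 0.05 for the Benjamini-Hochberg adjusted p over the 12340 genes left by a filter on low counts, and all 10 genes were among them. Among all tested genes 13.5% were called lower, 16.2% higher and 29.7% in either direction. The median log2 fold change was -0.23 over the 10 genes and 0.010 over all tested genes, with 7 of the 10 below 0. All 4 genes called lower were below every FXRKO liver in every BCL6LKOFXRKO liver, a separation that 15.2% of tested genes showed downward and 16.1% upward, whereas the groups overlapped for the other 6. In whole liver, fewer cells of a type and less RNA per cell cannot be told apart.

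**Figure D1:**
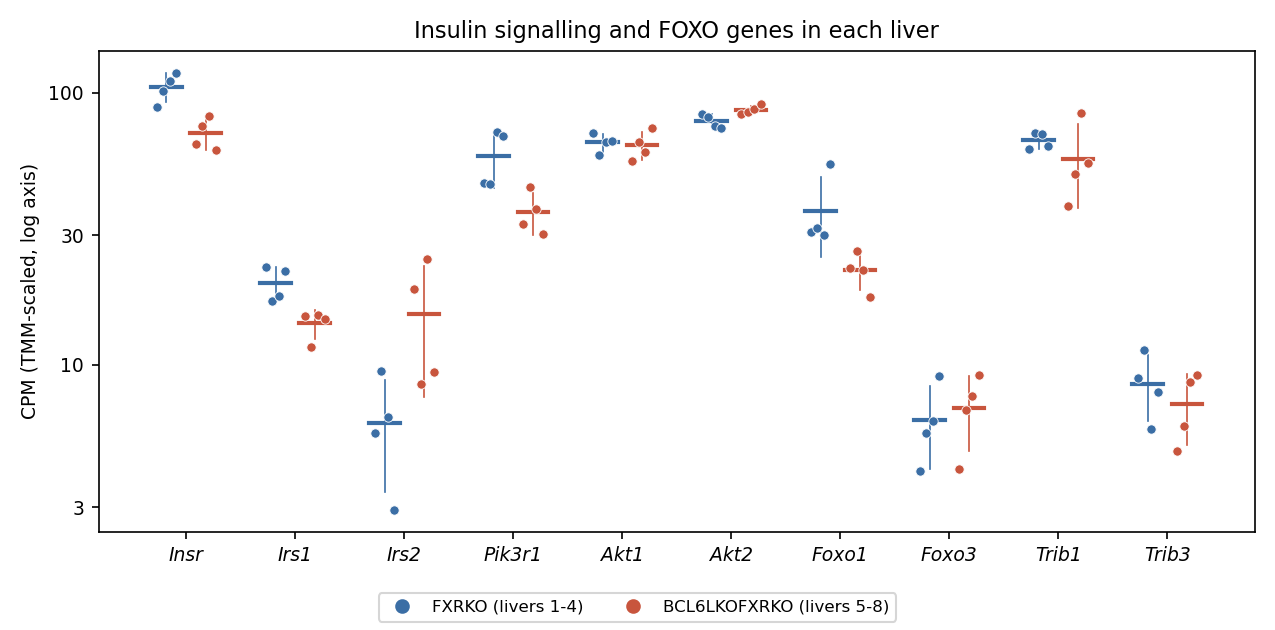
Levels of the 10 genes in each liver, as CPM (counts relative to library totals adjusted with TMM factors) on a log axis. Points are livers, horizontal bars are means and vertical bars are SDs (n = 4 in each genotype). For *Insr*, *Irs1*, *Pik3r1* and *Foxo1* every BCL6LKOFXRKO point lies below every FXRKO point, while the *Irs2* points of livers 6 and 8 lie within the FXRKO range.

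**Figure D2:**
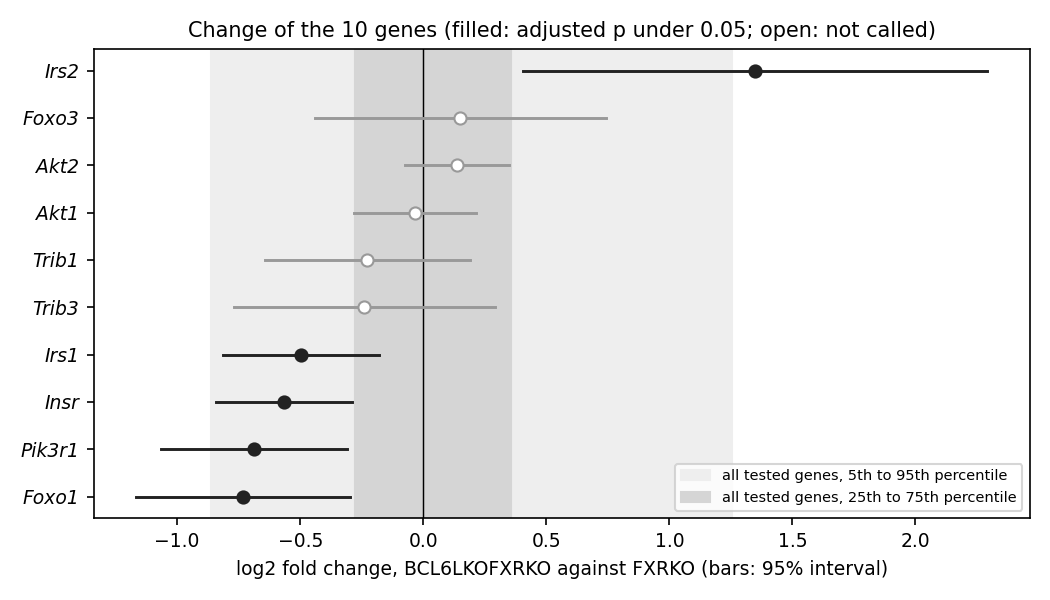
Log2 fold change of each gene, BCL6LKOFXRKO against FXRKO, with its 95% interval. Filled points passed an adjusted p under 0.05. The dark band holds the middle of all tested genes, from -0.28 to 0.36, and the light band reaches from -0.86 to 1.25, so that of the 10 genes only *Irs2* lies outside the light band.

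The libraries held between 7586241 and 11839503 counts on genes. *Bcl6*, the targeted gene, was at 49.6 ± 19.4 CPM (SD, n = 4) in FXRKO livers and 7.44 ± 3.24 CPM (SD, n = 4) in BCL6LKOFXRKO livers, and its 2 ranges did not overlap. *Nr1h4*, which encodes FXR, was still counted in both groups, and since the deleted part is not given here these counts check no label. It was at 60.0 ± 2.46 CPM (SD, n = 4) and 43.5 ± 3.69 CPM (SD, n = 4), respectively. These ranges did not overlap either, and *Nr1h4* was called lower in BCL6LKOFXRKO livers (log2 fold change -0.46, edgeR adjusted p 0.00497). From 31.2% to 32.6% of counts in FXRKO livers, and from 41.7% to 45.1% in BCL6LKOFXRKO livers, fell on the 50 genes with most counts. When libraries were scaled by total counts alone, the log2 fold changes of all genes shifted by a median of -0.16 relative to TMM scaling. The 5 called genes kept their direction under every scaling tried.

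*Insr* encodes the insulin receptor (NM_010568, mm10 chromosome 8 from 3150922 to 3279617, minus strand). It was at 89.0, 102, 111 and 119 CPM in FXRKO livers 1 to 4 and at 65.1, 75.4, 82.1 and 61.7 CPM in BCL6LKOFXRKO livers 5 to 8. Thus the highest BCL6LKOFXRKO liver stayed below the lowest FXRKO liver. This was a log2 difference of -0.57 (SE 0.13, 95% interval -0.84 to -0.29), and edgeR's adjusted p was 0.00511. An exact permutation of CPM over the livers, two-sided, returned 0.029, which is the lowest p possible with 4 and 4. *Insr* had the smallest adjusted p of the 10 genes and was called under all 15 alternatives, with log2 fold changes between -0.72 and -0.50. Its receptor isoforms, which differ by inclusion of an exon, were not resolved by these counts.

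The adaptor genes *Irs1* and *Irs2* moved in opposite directions. *Irs1* (NM_010570, chromosome 1 from 82233105 to 82291439, minus strand) was at 23.0, 17.2, 17.9 and 22.1 CPM in FXRKO livers 1 to 4 and at 15.1, 11.7, 15.3 and 14.8 CPM in BCL6LKOFXRKO livers 5 to 8. All BCL6LKOFXRKO livers were below all FXRKO livers, and liver 6 was the lowest. The log2 difference was -0.50 (SE 0.15, 95% interval -0.82 to -0.18), for which edgeR's adjusted p was 0.0222 and the exact permutation p 0.029. Without FXRKO liver 1, FXRKO liver 4 or BCL6LKOFXRKO liver 6 it was no longer called (edgeR adjusted p of 0.0657, 0.0657 and 0.0527), although the log2 differences were still -0.43, -0.45 and -0.43.

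*Irs2* (NM_001081212, chromosome 8 from 10986964 to 11008430, minus strand) was at 5.62, 9.50, 6.45 and 2.93 CPM in FXRKO livers 1 to 4 and at 18.9, 8.49, 24.5 and 9.44 CPM in BCL6LKOFXRKO livers 5 to 8. Livers 5 and 7 were above every FXRKO liver, while livers 6 and 8 were just below FXRKO liver 2. Its log2 difference of 1.35 (SE 0.42, 95% interval 0.40 to 2.29) was larger in size than that of any other of the 10 genes, and edgeR's adjusted p was 0.0380. The exact permutation test on CPM did not pass, with p = 0.086. *Irs2* was also the most variable of the 10, with a biological coefficient of variation of 0.393 against 0.114 to 0.254 for the others. It stayed higher in all 15 alternatives, with log2 fold changes between 1.03 and 1.62, but was not called in 7 of them. Of these, 5 were fits without FXRKO liver 1, 3 or 4 or BCL6LKOFXRKO liver 5 or 7, in which edgeR's adjusted p was 0.0820, 0.0753, 0.0682, 0.0867 and 0.0764 and the log2 fold change 1.31, 1.38, 1.10, 1.23 and 1.03. Normalization to total counts and the fit with no filter gave the other 2, with edgeR adjusted p-values of 0.0628 and 0.0956.

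Within each liver, the ratio of *Irs2* to *Irs1* per transcript length does not depend on scaling between libraries. It was 0.558, 1.26, 0.821 and 0.303 in FXRKO livers 1 to 4 and 2.86, 1.67, 3.67 and 1.46 in BCL6LKOFXRKO livers 5 to 8. *Irs2* was thus the more abundant adaptor transcript in all 4 BCL6LKOFXRKO livers and in 1 of 4 FXRKO livers, and the ranges did not overlap. The summed level of both adaptors was taken in TPM (counts per transcript length, scaled to the same total in each liver). It was 7.33 ± 0.865 TPM (SD, n = 4) in FXRKO livers and 9.80 ± 4.26 TPM (SD, n = 4) in BCL6LKOFXRKO livers, with overlapping ranges. TPM use no TMM factors, so these sums lack the scaling between libraries that CPM have.

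The promoters of both adaptor genes are shown because these genes went opposite ways, and those of *Pik3r1* and *Foxo1* because they fell with *Irs1*. Each is the 250 bases before the RefSeq start site in GRCm38.p6, written 5′ to 3′ on the strand of the gene: chr1:82291440-82291689 for *Irs1*, chr8:11008930-11009179 for *Irs2*, chr13:101768218-101768467 for *Pik3r1* (all minus strand) and chr3:52268087-52268336 for *Foxo1* (plus strand). Of the 10 genes, 8 had a window in the RefSeq promoter table. *Insr*, which also fell, and *Trib1* had none. Capitals mark matches, on either strand, to the E-box CACGTG and to TGTTT, the core of the sites that FOXO proteins bind.
Irs1: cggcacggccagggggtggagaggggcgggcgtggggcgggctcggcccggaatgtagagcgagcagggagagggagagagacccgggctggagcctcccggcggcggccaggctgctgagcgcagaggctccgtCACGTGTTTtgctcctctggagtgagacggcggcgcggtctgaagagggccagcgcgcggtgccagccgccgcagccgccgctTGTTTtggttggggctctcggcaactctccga
Irs2: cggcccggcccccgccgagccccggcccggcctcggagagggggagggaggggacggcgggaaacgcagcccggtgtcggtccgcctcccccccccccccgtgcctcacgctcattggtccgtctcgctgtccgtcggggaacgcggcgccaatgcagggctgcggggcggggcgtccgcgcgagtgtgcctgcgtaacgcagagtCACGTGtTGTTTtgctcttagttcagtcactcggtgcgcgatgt
Pik3r1: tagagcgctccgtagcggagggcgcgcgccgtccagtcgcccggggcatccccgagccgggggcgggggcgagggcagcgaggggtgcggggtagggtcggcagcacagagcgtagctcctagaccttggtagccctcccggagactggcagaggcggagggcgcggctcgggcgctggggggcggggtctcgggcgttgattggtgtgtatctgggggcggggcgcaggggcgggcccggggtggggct
Foxo1: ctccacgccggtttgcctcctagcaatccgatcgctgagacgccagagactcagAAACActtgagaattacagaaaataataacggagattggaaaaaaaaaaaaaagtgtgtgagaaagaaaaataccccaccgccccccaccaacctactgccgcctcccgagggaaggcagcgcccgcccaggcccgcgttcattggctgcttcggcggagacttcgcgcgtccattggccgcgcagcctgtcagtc

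In the *Irs1* window the E-box at positions -115 to -110, counted from the start site, overlapped a TGTTT at -111 to -107, and a further TGTTT lay at -32 to -28. In the *Irs2* window the E-box at -44 to -39 was followed by a TGTTT at -37 to -33. An E-box was present in 6.02% of the 32851 promoter windows of this length, TGTTT in 46.4%, and both with starts at most 10 bases apart in 0.304%, or 100 windows, a count made after the match in both *Irs* windows was seen. The *Foxo1* window held 1 TGTTT, on the opposite strand, and no E-box, and the shown *Pik3r1* window held neither. Also searched on both strands were TGTTTAC (3.17% of windows, which overlaps TGTTT), the BCL6-like letters TTCCTNGAA (1.31%) and the nuclear receptor half-site AGGTCA (14%), and none of these occurred in the 4 windows shown. The RefSeq start of *Irs2* lies 499 bases upstream of the counted transcript, and the other 3 starts are those of the counted transcripts.

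*Pik3r1* encodes the regulatory subunit p85 alpha and its shorter forms p55 alpha and p50 alpha (NM_001077495, chromosome 13 from 101680761 to 101768217, minus strand). It was at 46.5, 46.4, 71.7 and 69.5 CPM in FXRKO livers 1 to 4 and at 32.8, 45.0, 37.4 and 30.3 CPM in BCL6LKOFXRKO livers 5 to 8. FXRKO livers 3 and 4 were well above livers 1 and 2, and the gap between the groups was narrow, from 45.0 to 46.4 CPM. On the log2 scale *Pik3r1* differed by -0.69 (SE 0.17, 95% interval -1.07 to -0.31), and edgeR's adjusted p was 0.0103 (exact permutation p = 0.029). *Pik3r1* was called under all 15 alternatives, with log2 fold changes between -0.85 and -0.58. The counts do not separate the long and short forms, which share exons.

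The AKT kinase genes were not called. *Akt1* (NM_009652, chromosome 12 from 112653821 to 112674276, minus strand) was at 71.3, 59.0, 66.2 and 66.7 CPM in FXRKO livers 1 to 4 and at 56.3, 65.9, 60.7 and 74.5 CPM in BCL6LKOFXRKO livers 5 to 8, and the ranges overlapped throughout. Its log2 fold change was -0.033 with a 95% interval from -0.28 to 0.22 (edgeR adjusted p 0.858). *Akt2* (NM_001110208, chromosome 7 from 27591552 to 27640826, plus strand), the main AKT gene for insulin action on glucose, was at 83.9, 81.9, 75.4 and 74.5 CPM in FXRKO livers 1 to 4 and at 83.5, 85.1, 87.7 and 90.7 CPM in BCL6LKOFXRKO livers 5 to 8. Its log2 fold change of 0.14 had a 95% interval from -0.073 to 0.35 (edgeR adjusted p 0.313, exact permutation p = 0.057) and was -0.0226 when scaled to total counts. The intervals thus bound the change of *Akt1* to between 0.823-fold and 1.16-fold and that of *Akt2* to between 0.951-fold and 1.27-fold. The ratio of *Akt2* to *Akt1* per length was 0.712 ± 0.0734 (SD, n = 4) in FXRKO and 0.803 ± 0.0740 (SD, n = 4) in BCL6LKOFXRKO livers, with overlapping ranges.

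*Foxo1*, the main FOXO gene of glucose output in liver (NM_019739, chromosome 3 from 52268337 to 52350109, plus strand), was at 30.7, 31.9, 30.1 and 55.0 CPM in FXRKO livers 1 to 4 and at 22.8, 26.3, 22.3 and 17.8 CPM in BCL6LKOFXRKO livers 5 to 8. FXRKO liver 4 stood far above the other 3, and all BCL6LKOFXRKO livers were below all FXRKO livers. The difference on the log2 scale was -0.73 (SE 0.20, 95% interval -1.17 to -0.30), where edgeR gave an adjusted p of 0.0156 and the exact permutation test 0.029. Without FXRKO liver 4 the log2 difference was -0.47, still called (edgeR adjusted p 0.0351). Without BCL6LKOFXRKO liver 8 it was -0.64 and was not called (edgeR adjusted p 0.0614).

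*Foxo3* (NM_019740, chromosome 10 from 42185786 to 42276742, minus strand) was low, with 39 to 101 counts per liver. It was at 4.06, 5.62, 6.23 and 9.08 CPM in FXRKO livers 1 to 4 and at 4.13, 6.80, 7.69 and 9.17 CPM in BCL6LKOFXRKO livers 5 to 8, nearly the same range in both groups. Its log2 fold change was 0.15, with a wide 95% interval from -0.44 to 0.74 (edgeR adjusted p 0.715), and the sign turned in 4 alternatives, total counts among them. The interval reached up to a 1.67-fold rise. The ratio of *Foxo1* to *Foxo3* per length was 3.93, 2.95, 2.51 and 3.15 in FXRKO livers 1 to 4 and 2.86, 2.01, 1.51 and 1.01 in BCL6LKOFXRKO livers 5 to 8. The ranges overlapped, since BCL6LKOFXRKO liver 5 was above FXRKO liver 3.

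**Figure D3:**
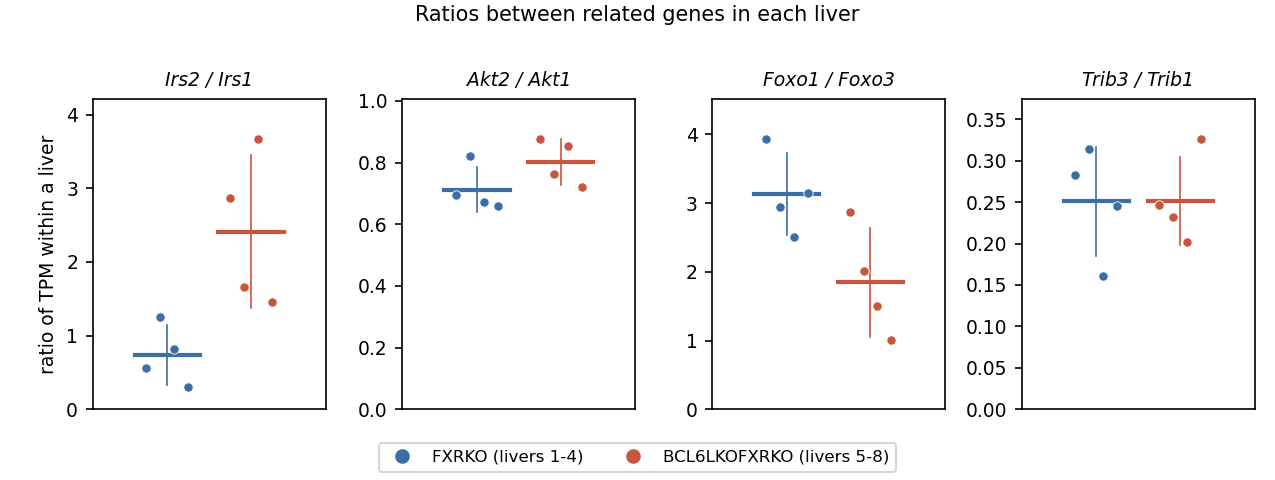
Ratios of TPM between related genes within each liver, for *Irs2* to *Irs1*, *Akt2* to *Akt1*, *Foxo1* to *Foxo3* and *Trib3* to *Trib1*. Points are livers, horizontal bars are means and vertical bars are SDs (n = 4 in each genotype), and only the *Irs2* to *Irs1* ratio has ranges that do not overlap.

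The tribbles genes were not called either. *Trib1* (NM_144549, chromosome 15 from 59648654 to 59657099, plus strand) was tightly grouped in FXRKO livers 1 to 4, at 62.2, 71.1, 70.8 and 63.8 CPM, and spread widely in BCL6LKOFXRKO livers 5 to 8, at 38.5, 50.5, 84.4 and 55.3 CPM. Livers 5, 6 and 8 were below every FXRKO liver and liver 7 was above every FXRKO liver. The log2 fold change was -0.23 with a 95% interval from -0.64 to 0.19 (edgeR adjusted p 0.403). Without BCL6LKOFXRKO liver 7, the liver with the highest *Irs2*, it was -0.48 and was called (edgeR adjusted p 0.0247). *Trib3* (NM_175093, chromosome 2 from 152337425 to 152344060, minus strand), with 48 to 101 counts per liver, was at 8.95, 11.4, 5.80 and 7.95 CPM in FXRKO livers 1 to 4 and at 4.83, 5.95, 8.67 and 9.17 CPM in BCL6LKOFXRKO livers 5 to 8. These ranges overlapped, and the log2 fold change of -0.24 had a 95% interval from -0.77 to 0.29 (edgeR adjusted p 0.494). The ratio of *Trib3* to *Trib1* per length was 0.251 ± 0.0662 (SD, n = 4) in FXRKO and 0.252 ± 0.0530 (SD, n = 4) in BCL6LKOFXRKO livers.

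Per transcript length, *Akt1* was the most abundant of the 10 transcripts in FXRKO livers at 48.5 ± 3.56 TPM (SD, n = 4), above *Akt2* at 34.4 ± 1.58 TPM and *Trib1* at 32.9 ± 2.42 TPM, whose ranges overlapped each other but not that of *Akt1*. *Insr* followed at 22.2 ± 3.03 TPM, then *Pik3r1* at 16.8 ± 4.19 TPM and *Foxo1* at 13.2 ± 4.47 TPM, and neighbours in this stretch overlapped. *Trib3* at 8.20 ± 2.19 TPM, *Irs1* at 4.32 ± 0.614 TPM, *Foxo3* at 4.29 TPM (range 2.72 to 6.31) and *Irs2* at 3.01 ± 1.32 TPM were the lowest, and the last 3 overlapped. In BCL6LKOFXRKO livers the first 6 kept this order. There *Irs2*, at 7.01 ± 3.88 TPM (SD, n = 4), stood in place 7 where it had been in place 10, and *Irs1*, at 2.79 ± 0.435 TPM (SD, n = 4), moved from place 8 to the last.

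BCL6LKOFXRKO livers 5 and 7, the highest in *Irs2*, were also the highest of their genotype in *Igfbp1*, *G6pc* and *Sgk1*, genes known to respond to insulin or feeding, but not in every such gene. Both livers were the highest of their genotype in 12 of the 24 FOXO targets tested and in 3 of the 13 insulin-induced genes. Among all tested genes this was 17%, and the count was made after the order was seen. Genes of a list can vary together, so these shares describe the order of the same 4 livers and are not independent observations. In BCL6LKOFXRKO livers 5 to 8, *Igfbp1*, a FOXO target that insulin represses, was at 479, 138, 354 and 239 CPM, against 43.2, 182, 115 and 50.6 CPM in FXRKO livers 1 to 4. Livers 5 and 7 were highest and liver 6 lowest within its genotype for *Igfbp1*, as for *Irs2*, and among FXRKO livers both were highest in liver 2. The log2 difference of *Igfbp1*, 1.63 (SE 0.58), was not called (edgeR adjusted p 0.0719). *G6pc*, which encodes the catalytic subunit of glucose-6-phosphatase, was at 256, 66.4, 233 and 107 CPM in BCL6LKOFXRKO livers 5 to 8 and at 134, 315, 481 and 158 CPM in FXRKO livers 1 to 4 (log2 fold change -0.71, adjusted p = 0.391 from edgeR). *Sgk1*, a kinase related to AKT, was at 53.6, 25.1, 47.1 and 32.1 CPM in livers 5 to 8 and at 11.8, 11.1, 17.7 and 17.8 CPM in FXRKO livers 1 to 4, 1.43 higher on the log2 scale (edgeR adjusted p 0.00131). Among FXRKO livers its order was the reverse at both ends, lowest in liver 2 and highest in liver 4. *Pck1* and *Cpt1a*, which also respond to fasting, did not follow *Irs2* among BCL6LKOFXRKO livers 5 to 8, at 735, 603, 1281 and 810 CPM for *Pck1* and at 230, 318, 307 and 323 CPM for *Cpt1a*. These orders within a genotype were seen in the data and then described, and the part of feeding state in them was not tested.

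**Figure D4:**
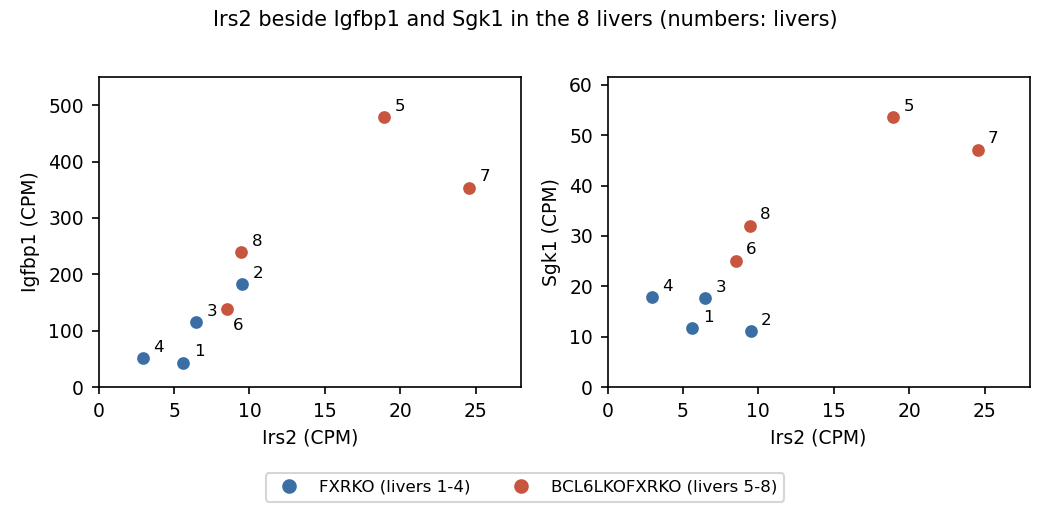
*Irs2* (horizontal axis, CPM) beside *Igfbp1* and *Sgk1* (vertical axes, CPM) in each liver, numbered 1 to 4 for FXRKO and 5 to 8 for BCL6LKOFXRKO. Livers 5 and 7, the highest in *Irs2*, are also the highest in *Igfbp1* and *Sgk1*, while among FXRKO livers liver 2, the highest in *Irs2*, is the highest in *Igfbp1* and the lowest in *Sgk1*.

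Around the 10 genes, 8 lists held 138 other tested pathway genes, of which 22 were called higher and 18 lower, or 29.0%, against 29.7% of all tested genes. Among receptor-proximal genes 3 of 20 tested were called higher and 2 lower, or 25%. *Igf1r*, the receptor of insulin-like growth factor 1, rose from 1.47 ± 0.373 to 3.52 ± 0.288 CPM (SD over 4 livers each), or by 1.25 on the log2 scale (edgeR adjusted p 0.00265). *Enpp1* and *Dok1*, both inhibitors of receptor signalling, rose by 0.61 and 0.98 on the log2 scale. *Grb14*, an inhibitor of the receptor kinase, and *Ceacam1*, which promotes hepatic insulin clearance, fell by 0.34 and 0.72 on the log2 scale.

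Of 17 tested genes of PI3 kinase subunits and phosphatases, 2 were called higher and 4 lower, or 35.3% against 29.7% of all tested genes. *Pik3cb*, the catalytic subunit p110 beta, fell by 0.61 on the log2 scale and *Pik3cd*, the p110 delta subunit typical of leukocytes, rose by 0.71. *Inppl1*, the lipid phosphatase SHIP2, rose by 0.49, and *Them4* and *Phlpp1*, whose products oppose AKT, fell by 0.77 and 0.50 on the log2 scale. The remaining lower gene was *Ppp2ca*, a catalytic subunit of protein phosphatase 2A, which fell by 0.27 on the log2 scale. Downstream of AKT, 1 of 20 tested genes was called higher, *Tsc2* with a log2 fold change of 0.34, and 1 was called lower, *Rps6kb1* with a log2 fold change of -0.35. TSC2 restrains the kinase mTOR, and *Rps6kb1* encodes its substrate S6 kinase. Among 14 tested FOXO relatives and regulators, *Sgk1* was called higher and none lower. The shares called were 10% downstream of AKT and 7.14% among the FOXO relatives and regulators.

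Of 24 liver genes known as FOXO targets, 5 were called higher and 5 lower (median on the log2 scale 0.087). This was 41.7%, against 29.7% of all tested genes. *Pck1*, the gluconeogenic enzyme phosphoenolpyruvate carboxykinase, fell from 2613 ± 840 to 857 ± 295 CPM (SD over 4 livers each), or by 1.61 on the log2 scale (edgeR adjusted p 0.00215). *Cat*, which encodes catalase, and *Klf15* fell by 1.02 and 0.90 on the log2 scale, *Cpt1a*, which takes fatty acids into mitochondria, fell by 0.89, and *Bcl6*, also in this list, is the deleted gene. *Pdk4*, which restrains glucose oxidation, rose with a log2 fold change of 2.25, the pro-apoptotic *Bcl2l11* with 1.94 and *Apoc3* with 0.58. The cell cycle inhibitor *Cdkn1a* and the ubiquitin ligase gene *Fbxo32* rose with 2.09 and 0.97. Of 13 tested genes known to rise with insulin, 3 were called higher and 2 lower, or 38.5%, with a median of -0.14. *Pnpla3* and *Pnpla5*, related lipase-like genes, rose by 2.21 and 1.82 on the log2 scale. *Pnpla5* had only 3 to 8 counts in FXRKO livers and 16 to 31 in BCL6LKOFXRKO livers. Its passing of the filter on low counts thus rested on the BCL6LKOFXRKO livers. *Thrsp*, a lipogenic gene, rose by 0.59. *Scd1*, stearoyl-CoA desaturase, fell by 1.49 and *Me1*, malic enzyme, by 0.51 on the log2 scale, while *Srebf1*, the lipogenic regulator that insulin induces, was at a log2 fold change of -0.82 that did not pass (edgeR adjusted p 0.0940).

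Among 9 tested partners of the tribbles proteins, none was called higher and 4 were called lower, or 44.4% against 29.7% of all tested genes. *Cebpa*, the gene of C/EBP alpha, fell from 443 ± 72.5 to 273 ± 38.4 CPM (SD over 4 livers each), or by 0.70 on the log2 scale (edgeR adjusted p 0.00316). *Mlxipl*, the carbohydrate-responsive factor ChREBP, and *Cebpb* fell by 1.08 and 0.62 on the log2 scale. *Cop1*, the ubiquitin ligase that TRIB1 brings to C/EBP alpha, fell by 0.51 on the log2 scale. Of 21 tested genes in a list of ATF4, its targets, among which *Trib3* counts, and the upstream kinases *Eif2ak3* and *Eif2ak4*, 7 were called higher and none lower, with a median of 0.28. This was 33.3% in either direction, against 29.7% of all tested genes, of which 16.2% were called higher. *Fgf21*, 1 of the 7, had 0 to 7 counts in FXRKO and 16 to 36 in BCL6LKOFXRKO livers, and *Nupr1* had 4 to 29 and 56 to 79. A gene can pass the filter on low counts through 1 genotype alone. When at least 10 counts were required in every liver, 4 genes of this list were called higher. *Vldlr*, *Nupr1* and *Eif2ak3*, the last encoding PERK, a kinase that acts upstream of ATF4, rose by 2.48, 2.11 and 1.02 on the log2 scale. *Atf4* itself was not called, at a log2 fold change of 0.14 (edgeR adjusted p 0.431). While 18 of the 21 genes were above 0, *Chac1* and *Asns* were below it, at -0.66 and -0.37, and were not called.

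**Figure D5:**
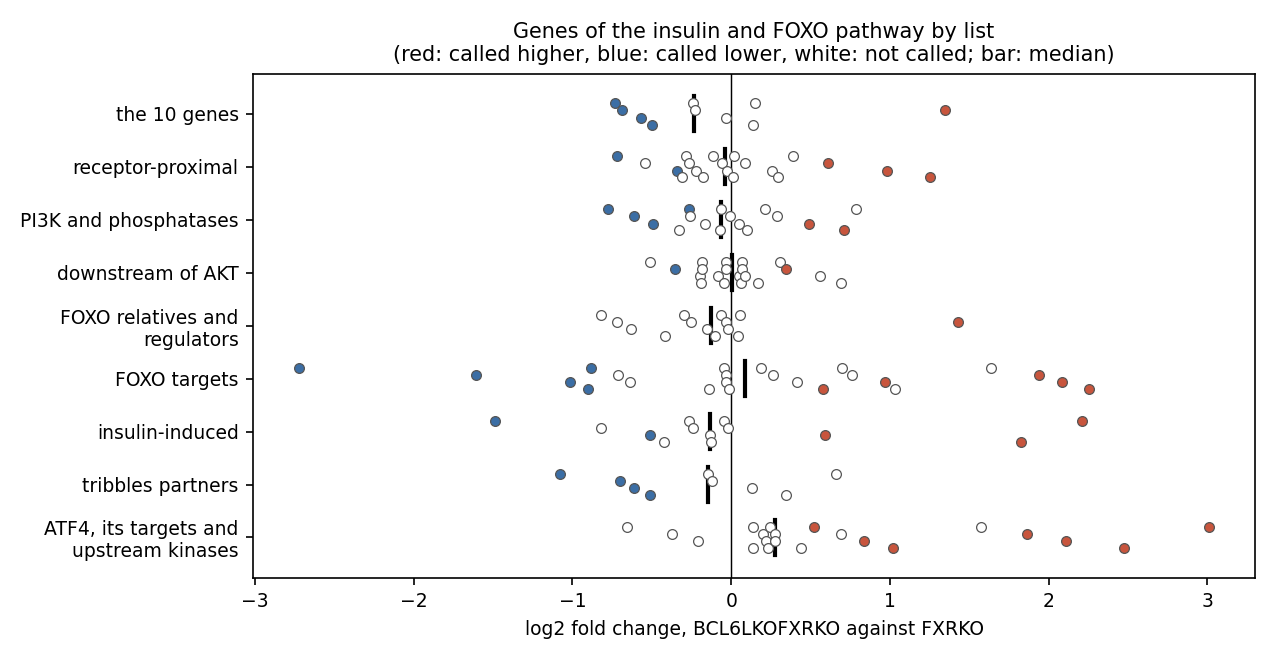
Log2 fold change of the 10 genes and of the tested genes of 8 pathway lists, BCL6LKOFXRKO against FXRKO. Each point is a gene, red for called higher, blue for called lower and white for not called, and black bars are medians, which lie between -0.23 for the 10 genes and 0.28 for ATF4, its targets and upstream kinases.

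Counts of cell type markers called higher are given against the 16.2% of all tested genes called higher, and each list was small. Of 10 stellate cell markers 7 were called higher and none lower, and their summed level was between 240 and 331 CPM in FXRKO livers and between 485 and 608 CPM in BCL6LKOFXRKO livers. Of 9 cholangiocyte markers 6 were tested and 3 of these were called higher, and the 9 had sums of 42.5 to 68.6 and 92.9 to 196 CPM. *Prom1*, 1 of the 3 called, was at a log2 difference of 4.99 (edgeR adjusted p 0.000288). A gene can pass the filter on low counts through 1 genotype alone, so a share of tested genes called higher can be raised by the filter. *Sox9*, also tested, was at a log2 difference of -0.81 and was not called (edgeR adjusted p 0.0773). Macrophage markers had 3 of 11 and endothelial markers 1 of 8 called higher, with overlapping sums of 393 to 557 and 544 to 877 CPM for macrophages and of 184 to 249 and 236 to 308 CPM for endothelial cells. T cell markers were near 0, with sums of 1.87 to 2.74 and 5.23 to 8.34 CPM, and the sums did not overlap. Of 8 T cell markers listed, 7 matched a counted gene and only *Lck* passed the filter on low counts. It was called higher (log2 difference 1.86, edgeR adjusted p 0.00343). No share can be read from this 1 gene, since being high in 1 genotype is enough to pass the filter. Of 10 hepatocyte markers 2 were called higher and 2 lower, the median log2 difference being -0.19. Those called lower were *Serpina1c* and *Ttr*, with log2 differences of -1.54 and -0.76. *Apoa2*, at 0.61, was called higher beside albumin. Their summed level was between 68524 and 79774 CPM in FXRKO livers and between 157773 and 178249 CPM in BCL6LKOFXRKO livers, where albumin itself (*Alb*) was higher by 1.60 on the log2 scale. Markers of adipose tissue and muscle summed to at most 0.364 CPM in any liver, and *Plin1*, *Lep*, *Myh4* and *Ckm* were at 0. The part of these cells in the levels of the 10 genes was not tested.

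The genes whose log2 CPM followed *Insr* most closely over the 8 livers, among 9359 others whose counts averaged 50 or more, were *Asnsd1*, *Rad54l2* and *Scyl3*, with Pearson r of 0.992, 0.991 and 0.989. Those closest to *Irs2* were the beta-globin entries *Hbb-bt* and *Hbb-b2*, which hold identical counts at r = 0.953, and *Btg2* at r = 0.953. These values describe the likeness of patterns that include the difference between the genotypes, and the globin transcripts come from red cells.

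The table was counted without regard to strand, so reads of opposite-strand genes cannot be told apart from those of the genes described. In GENCODE M21 an opposite-strand gene overlapped exons of *Irs1* (*Gm9747*, 2822 bases), *Irs2* (*9530052E02Rik*, 162 bases) and *Foxo1* (*Gm20402*, 674 bases). *9530052E02Rik* itself had between 0 and 8 counts per liver, against 31 to 252 for *Irs2*.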

How the data were processed

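Liver RNA-seq of 4 FXRKO and 4 BCL6LKOFXRKO males was used, grouped by the sample titles, with livers numbered as in the library names. Libraries were made with a stranded poly(A) kit. The authors used STAR 2.5.2 on mm10, discarded multimapped reads and those with over 4 mismatches, and deposited unnormalized counts of exon reads from HOMER 4.10, which kept 1 transcript per gene and, per the file headers, had no strand setting. The methods name DESeq2 for differential expression.

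The deposited counts went into edgeR 4.0.16 (R 4.3.3) with filterByExpr, TMM factors and a robust quasi-likelihood fit, and p-values of the 12340 genes were adjusted together by the Benjamini-Hochberg method. CPM use the TMM factors; TPM use the deposited lengths. Standard errors and 95% intervals come from the quasi-likelihood F statistics. Exact permutation tests were two-sided over 70 orderings of CPM. Titles number the livers separately, with no word on litters or batches, so p-values measure the spread between these samples. Replicates differed by more than sampling noise (chi-square per degree of freedom 10.0 to 45.8).

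The 10 genes, the pathway and marker lists and the tests were chosen with earlier results of these data known. The rule for naming list genes took up to 3 called genes per direction by adjusted p, plus *G6pc*, *Pck1*, *Igfbp1* and *Srebf1*; 1 further gene of this rule is not reported here. *Cop1*, *Ppp2ca*, *Cpt1a*, *Cdkn1a*, *Fbxo32*, *Atf4*, *Chac1*, *Asns*, *Fgf21*, *Alb*, *Apoa2*, *Serpina1c*, *Ttr*, *Prom1*, *Sox9* and *Lck* were named after their values were seen. Of 151 listed pathway symbols, *Gm6484* and *Rfwd2* matched no row. Alternatives were DESeq2 1.42.0, limma 3.58.1 voom with quality weights, other scalings and filters, a fold threshold and each liver left out. Promoter windows are from RefSeq (GRCm38.p6).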

Additional observations from a re-analysis of the deposited data

Results flagged for a closer look

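In 100 sets of 4 livers, each set being 1 gene or ratio in 1 genotype, 7 held a liver far from the rest, and about 5 would by chance. The values below are that liver's distance to its nearest neighbour as a share of the whole range of the set. Among the 10 genes it was 0.929 for *Foxo1* in FXRKO liver 4 (55.0 CPM against 30.1 to 31.9) and 0.865 for *Irs1* in BCL6LKOFXRKO liver 6 (11.7 CPM against 14.8 to 15.3). In BCL6LKOFXRKO liver 6 it was also 0.949 for *Inppl1* (69.4 CPM against 57.3 to 57.9) and 0.875 for *Mlxipl* (219 CPM against 143 to 152). In BCL6LKOFXRKO liver 7 it was 0.960 for *Bcl2l11* (27.0 CPM against 14.9 to 15.4) and 0.918 for *Scd1* (2096 CPM against 2916 to 2989). In FXRKO liver 4 it was 0.833 for *Apoc3* (1234 CPM against 1586 to 1656). No cause was tested.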

How the results depend on the processing

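No paired analysis was possible because the labels number the livers without repeating a number across genotypes and name no litter or batch. Of 150 alternative values of the 10 genes, 131 kept direction and call, 11 lost the call, 1 gained it and 7 changed sign, the last in *Akt1*, *Akt2* and *Foxo3*, which were not called. *Irs2* lost its call with total counts alone (log2 fold change 1.20) and no filter (1.33). *Akt2* was at -0.0226 with total counts alone, and *Foxo3* at -0.0112 with total counts and -0.0491 with limma voom. Across the fits that each left out 1 liver, log2 fold changes ran from -0.57 to -0.43 for *Irs1*, 1.03 to 1.62 for *Irs2*, -0.111 to 0.0263 for *Akt1*, -0.83 to -0.47 for *Foxo1*, -0.0186 to 0.39 for *Foxo3* and -0.48 to -0.0775 for *Trib1*. The count of the 10 genes called higher, 1, was 0 with total counts alone, 0 with no filter and 0 to 1 with a liver left out, while 3 to 5 were called lower, 5 without BCL6LKOFXRKO liver 7 and 3 without FXRKO liver 1 or 4 or BCL6LKOFXRKO liver 6 or 8, and 3 with a log2 fold change threshold of 0.5. Among all tested genes, 1994 were called higher and 1665 lower, and total counts alone gave 1404 and 2949, a share of 32.3% higher among called genes against 54.5%.

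Counts in the pathway lists were small and moved as follows. With total counts alone, 5 receptor-proximal genes, 4 downstream of AKT, 5 FOXO relatives and regulators, 4 insulin-induced genes and 1 ATF4 gene were called lower, and 0 PI3 kinase genes and 0 genes downstream of AKT higher. With limma voom, 1 PI3 kinase gene and 3 genes downstream of AKT were called higher and 3 FOXO relatives lower. With DESeq2, 2 genes downstream of AKT, 1 FOXO relative and 4 insulin-induced genes were called lower. Downstream of AKT, no filter left 0 higher, and at least 10 counts in every liver or leaving out the 50 most counted genes left 0 lower. The former left 4 ATF4 genes higher. With a liver left out, called counts ran from 1 to 3 (receptor-proximal, lower; 1 without liver 1, 4, 5 or 7), 1 to 2 (PI3 kinase, higher; 1 without liver 3, 4 or 8), 1 to 4 (PI3 kinase, lower; 1 or 2 without liver 2, 3, 4 or 5), 0 to 3 (downstream of AKT, higher; moved by livers 1, 3, 6 and 8), 0 to 2 (downstream of AKT, lower; moved by each liver), 0 to 2 (FOXO relatives, lower; moved by livers 4, 6 and 7), 3 to 7 (FOXO targets, higher; 3 without liver 4 or 5), 1 to 4 (insulin-induced, lower; 1 without liver 3, 4 without liver 7) and 0 to 1 (tribbles partners, higher; 1 without liver 4). The causes were not tested. *Foxo3* and *Trib3* had at most 101 counts per liver, the fewest of the 10 genes by their highest liver.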
